A study of Mus musculus with 6 samples.

Results

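The small-subunit processome is the large nucleolar particle that forms on the pre-ribosomal RNA while it is being transcribed, and the genes described here are those annotated to it. They were taken as every row of the deposited count table whose cellular-component annotation holds the term small-subunit processome, without ribosomal protein genes. Of 68 rows with the term, 3 ribosomal protein rows were left out, which gave 65 of 29626 genes. These were 36 protein-coding genes, 26 pseudogenes and 3 long non-coding RNAs that the table annotates by likeness to a protein. Of these 29 rows, 10 resemble the ribosomal protein Rps7 and stayed in because their own names do not start with Rps. RNA was sequenced from CD4+CD8+ double-positive (DP) thymocytes sorted by flow cytometry from mice of 8 weeks. The control group was 3 libraries from Kansl1fl/fl littermates without Cre. The other group, called KANSL1-deficient here, was 3 libraries from Kansl1fl/fl CD4-Cre mice. Both groups carry the floxed gene, and only the second carries Cre, driven by Cd4 regulatory sequences that act in DP cells and their CD4+ and CD8+ progeny, so an effect of Cre and of the loss of Kansl1 cannot be told apart. KANSL1 is the scaffold of the chromatin complex NSL, whose catalytic subunit is the acetyltransferase KAT8. The comparison asks which processome transcripts differ between these genotypes.

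As background, the processome folds the pre-ribosomal RNA and brings in the enzymes that cut out and modify the RNA of the small ribosomal subunit. Its early part, UTP-A, binds the nascent transcript and is also linked to ribosomal DNA transcription. UTP-B and the U3 snoRNP, in which the U3 small nucleolar RNA pairs with the pre-ribosomal RNA, follow, and the MPP10 and UTP-C modules and many single factors complete the particle. Lymphoid cells that grow and divide need many ribosomes, while most DP thymocytes are small and resting.

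The library totals lay between 19361968 and 22459830 counts. Kansl1 was read at 214, 189 and 230.1 CPM in control replicates 1 to 3 and at 146, 168 and 188 CPM in KANSL1-deficient replicates 1 to 3, and its log2 fold change was -0.33 ± 0.14 (SE), short of the threshold (edgeR adjusted p = 0.171). Adjusted p-values here are Benjamini-Hochberg values of the quasi-likelihood test in edgeR, taken over all tested genes. These are whole-gene counts that include any undeleted exons. CPM stands for counts scaled to a common library size with the TMM factors of edgeR. All 8 DP marker genes were read, with a summed level of 10264 to 10834 CPM in the control and 11805 to 12866 CPM in the KANSL1-deficient libraries. Of these 8, 2 were called higher and none lower, where 3.85% of all tested genes were called higher. Of 25 mitosis genes 25 rose and none fell, and their summed level was 408 to 687 CPM in the control and 1560 to 1816 CPM in the KANSL1-deficient libraries. Of 9 double-negative thymocyte markers that were read, 8 were tested, and none passed in either direction. Their sums were 89.5 to 116 and 133 to 157 CPM. The 8 macrophage markers in the table summed to 10.6 to 16.5 and 8.77 to 16.4 CPM, and the 7 erythroid markers to 3.57 to 8.22 and 3.21 to 5.21 CPM. CD4 single-positive markers summed to 349 to 430.1 and 616 to 780.1 CPM, with 2 of 5 tested called higher. CD8 single-positive markers summed to 27.3 to 30.2 and 15.6 to 18.7 CPM, and none of 3 tested was called. B cell markers summed to 291 to 406 and 493 to 561 CPM, with 1 of 3 tested called higher. Genes of G1/S and replication summed to 1377 to 1706 and 2616 to 2891 CPM, and 16 of 25 tested rose. Dendritic cell markers summed to 4.53 to 5.61 and 3.30 to 4.03 CPM, and those of gamma-delta T, NK and NKT cells to 21.2 to 25.6 and 26.9 to 32.1 CPM. Thymic epithelium markers summed to 8.93 to 10.6 and 10.1 to 13.1 CPM. The part of these differences in the processome results was not tested. In such bulk RNA, fewer cells of a type and less RNA per cell cannot be told apart.

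Part of the processome genes fell in the KANSL1-deficient cells, with at least 1 in every role group of coding members except the MPP10 module, of which Imp4 passed in 7 of 16 alternative analyses. Some of these groups are small, with 1 tested gene in UTP-C, 2 in UTP-A and 2 in the group of Xrcc5 and Prkdc. Of the 35 protein-coding genes that passed the filter on low counts, 10 fell and none rose, at an adjusted p under 0.05 over all 15353 tested genes. Over all tested genes 2.91% were called lower and 3.85% higher, and 3.69% of the protein-coding ones were lower. A negative log2 fold change was seen in 29 of the 35, and in 51.8% of all tested genes. A further 13 members had an unadjusted p under 0.05 and a negative log2 fold change but did not pass the adjusted threshold. Together these made 23 of 35, where 11.0% of all tested genes had an unadjusted p under 0.05 and a negative change. For positive changes this was 1 of 35 (Nop56), beside 11.7% of all tested genes. In 22 of the 35 genes every KANSL1-deficient library lay below every control library, as in 14.0% of all tested genes. The median log2 fold change of the 35 genes was -0.54, and it was -0.02 over all tested genes. The remaining coding member, the fibrillarin-like gene Fbll1, had 3 counts in KANSL1-deficient replicate 1 and none elsewhere, and was not tested. The libraries with the lower processome levels are those with the higher mitosis sums given above, and the part of these in the counts was not tested.

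The 10 genes that fell encode Nol6 of UTP-C, Rrp9 of the U3 snoRNP, Heatr1 of UTP-A, Wdr36 and Tbl3 of UTP-B, the PIN-domain protein Utp23, the assembly factors Dcaf13, Utp3 and Wdr46, and Xrcc5. Without control replicates 1, 2 and 3 in turn, 10, 5 and 7 members were called lower, beside 2.38%, 0.894% and 1.55% of all tested genes. Without KANSL1-deficient replicates 1, 2 and 3 the counts were 3, 4 and 5, beside 0.530%, 0.838% and 1.11%. Nol6, Rrp9 and Heatr1 passed in each of the 16 alternative analyses. In the authors' deposited table, 19 members have an adjusted p under 0.05 and all 19 are lower. That table marks 4 of them as significant: Nol6, Rrp9, Heatr1 and Utp20. Of the 19, only these 4 have a log2 fold change below -1 there. Xrcc5, at -0.995 with an adjusted p of 2.53e-05 (DESeq2), is not marked. The DESeq2 test run here on the same counts gave Nol6 the same adjusted p as the deposited table (3.25e-10). Its 19 members, beside 6.99% of the genes with an adjusted p called lower, are therefore no separate result. Scaling to library totals gave 20 members beside 6.23%, no filter gave 17 beside 2.85%, and a minimum of 5 CPM in 3 libraries gave 19 beside 7.52%. The analyses of log2(FPKM + 1) and log2(FPKM + 0.1) with limma gave 15 each, beside 4.25% and 3.93%. Median-of-ratios scaling, removal of the abundance trend and limma-voom gave 10, 9 and 12, beside 2.86%, 2.86% and 3.26%.

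**Figure D1:**
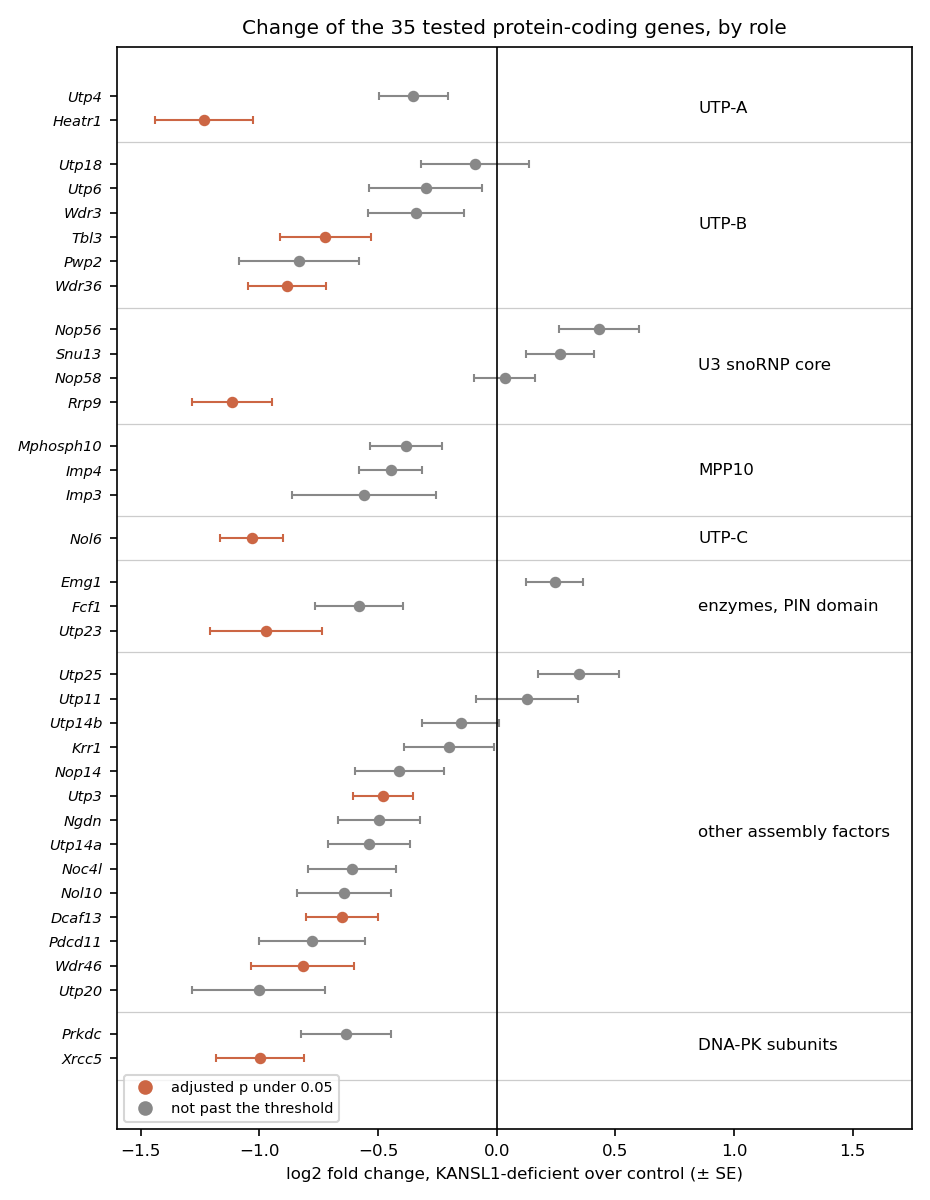
Log2 fold change of KANSL1-deficient over control (horizontal axis, bars are ± SE from the edgeR fit) for the 35 tested protein-coding genes, grouped by role, with 10 genes past the adjusted threshold in orange. Most points lie left of 0, and Nop56, Snu13, Nop58, Emg1, Utp25 and Utp11 lie right of it.

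Nol6, the counterpart of yeast Utp22 and the scaffold of UTP-C, had the smallest p of all members. Nol6 (ENSMUSG00000028430, spanning bases 41114427 to 41124455 of chromosome 4 in GRCm39) was read at 105, 103 and 105 CPM in control replicates 1 to 3 and at 55.0, 49.3 and 49.2 CPM in KANSL1-deficient replicates 1 to 3. The control libraries lay close together and all above the KANSL1-deficient ones. The mean fell from 105 ± 1.31 to 51.2 ± 3.36 CPM (SD, n = 3 each), a log2 fold change of -1.03 ± 0.13 (SE; edgeR adjusted p = 0.00325). Nol6 was the UTP-C member with the term. Of its partners without the term, Rrp7a, which binds Nol6 in this module, was read at 42.7, 42.8 and 41.8 CPM in the controls and 27.6, 25.4 and 25.7 CPM in the KANSL1-deficient libraries and fell by 0.69 on the log2 scale. Rrp36, a factor placed beside Rrp7a, fell by 0.71. The subunits of casein kinase CK2, which joins the yeast module, did not pass: the log2 fold changes were 0.27 for Csnk2a1, -0.54 for Csnk2a2 and -0.03 for Csnk2b.

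Of the 4 tested U3 snoRNP genes 1 fell. Rrp9, the WD-repeat protein that binds the U3 RNA and no other box C/D RNA, was read at 63.3, 92.1 and 77.5 CPM in control replicates 1 to 3 and at 34.1, 37.6 and 35.8 CPM in KANSL1-deficient replicates 1 to 3 (ENSMUSG00000041506, spanning bases 106353162 to 106362623 of chromosome 9 in GRCm39). Every KANSL1-deficient library lay below every control library, and control replicate 1 was the lowest control. The log2 fold change was -1.12 ± 0.17 (SE; edgeR adjusted p = 0.00529). The other 3 tested proteins of this group are shared by all box C/D snoRNPs. Nop56, a scaffold of these particles, was read at 142, 173 and 198 CPM in the controls and 282, 221 and 189 CPM in the KANSL1-deficient libraries, and its groups overlapped. Its log2 fold change of 0.43 ± 0.17 (SE) did not pass (edgeR adjusted p = 0.148). Nop58, its partner, was read at 147, 156 and 127 CPM in the controls and 154, 147 and 139.6 CPM in the KANSL1-deficient libraries, a log2 fold change of 0.03 ± 0.13 (SE). Snu13, which binds the kink-turn of these RNAs and also of a spliceosomal RNA, was read at 142, 203 and 165 CPM in the controls and 203, 212 and 199 CPM in the KANSL1-deficient libraries and had 0.27 ± 0.14. Neither passed the threshold (adjusted p = 0.92 and 0.299; edgeR).

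A ratio of FPKM within 1 library does not depend on how libraries are scaled. FPKM, as deposited, divides by a gene length and by sequencing depth. The lengths implied by counts and FPKM were 1629 bases for the single-exon Utp3 but 8553 for Imp4, 10758 for Nop58 and 10825 for Dcaf13. They need not be transcript lengths, so every order of FPKM between genes depends on them, while a ratio compared across libraries does not. The Rrp9 to Snu13 ratio was 0.443, 0.452 and 0.468 in the controls and 0.168, 0.176 and 0.180 in the KANSL1-deficient libraries. The ratio of Rrp9 to Nop58 was 1.58, 2.16 and 2.25 in the controls and 0.815, 0.938 and 0.940 in the KANSL1-deficient libraries. Both ratios were lower in each KANSL1-deficient library than in any control, and they were picked after the values had been seen, so no test is given. Fibrillarin (Fbl), the methyltransferase of box C/D snoRNPs, does not carry the term in this table, although 2 pseudogenes annotated as fibrillarin-like do. It was read at 20.2, 24.5 and 21.8 CPM in the controls and 12.6, 16.6 and 16.8 CPM in the KANSL1-deficient libraries, and its log2 fold change of -0.53 ± 0.21 (SE) did not pass (adjusted p = 0.157, edgeR). Rrp9 overlaps Parp3 on the opposite strand (log2 fold change -1.21, adjusted p = 0.0571, edgeR), and Nop56 overlaps Idh3b. The sources used here do not say whether counting used strand, so overlapping pairs such as these are uncertain, as is Heatr1 with Lgals8. The same holds for Fcf1 with Arel1, Wdr3 with Gdap2, Emg1 with Lpcat3, Pdcd11 with Calhm2 and Krr1 with Glipr1.

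**Figure D2:**
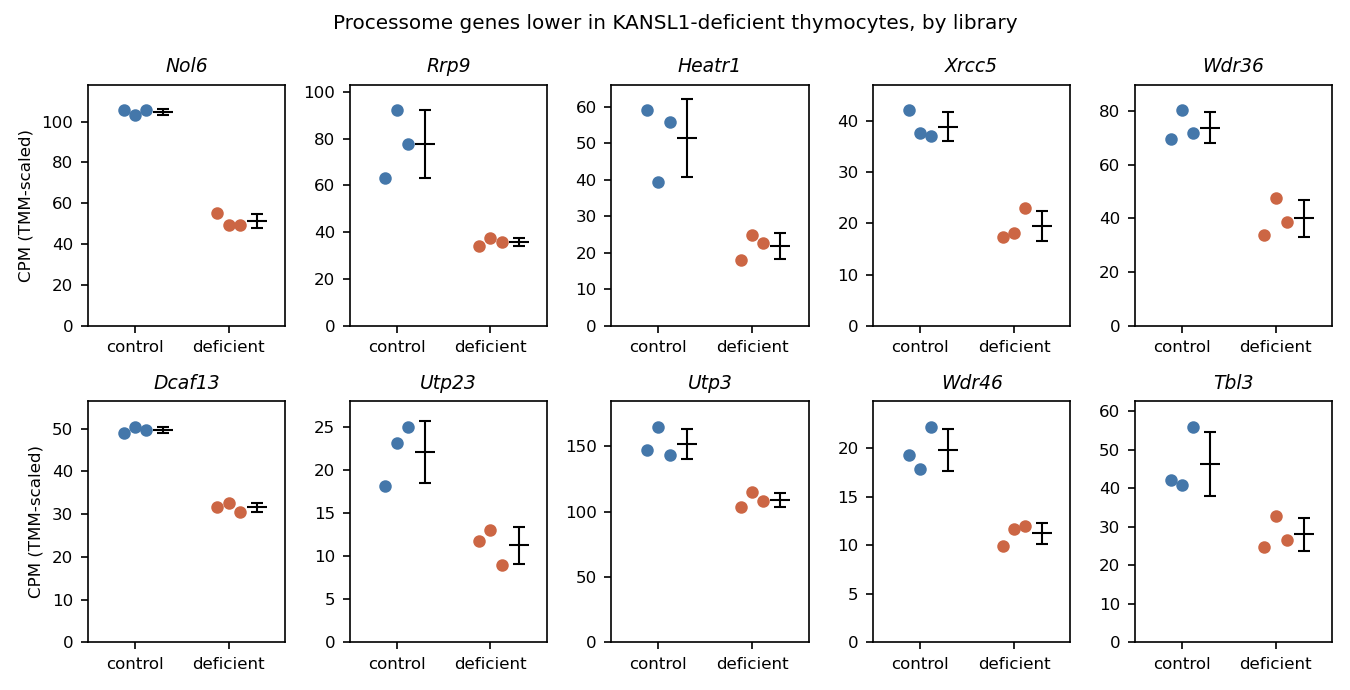
TMM-scaled CPM (vertical axis, from 0) of the 10 processome genes past the threshold in the 3 control (blue) and 3 KANSL1-deficient (orange) libraries, with the mean ± SD beside the points. In each panel all KANSL1-deficient points lie below all control points.

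In UTP-A, Heatr1 had the largest fall of the 35 genes. It encodes a very long HEAT-repeat protein, the counterpart of yeast Utp10 (ENSMUSG00000050244, spanning bases 12409908 to 12455170 of chromosome 13 in GRCm39). It was read at 59.1, 39.3 and 55.9 CPM in control replicates 1 to 3 and at 18.005, 25.0 and 22.6 CPM in KANSL1-deficient replicates 1 to 3. Control replicate 2 was the lowest control and still lay above every KANSL1-deficient library. The log2 fold change was -1.23 ± 0.21 (SE; edgeR adjusted p = 0.00702). Utp4, a WD-repeat subunit, was read at 62.4, 53.6 and 60.3 CPM in the controls and 45.9, 45.4 and 46.9 CPM in the KANSL1-deficient libraries. Its groups did not overlap, and its log2 fold change of -0.35 ± 0.15 (SE) did not pass (adjusted p = 0.181, edgeR). Of the 4 UTP-A genes without the term, Utp15 fell by 0.71 (adjusted p = 0.0483, edgeR). Wdr75, Nol11 and Wdr43 stayed short of the threshold, at -0.68, -0.21 and -0.19 on the log2 scale.

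UTP-B is a complex of 6 proteins, and all 6 were members. Wdr36, a protein with paired WD-repeat propellers, fell (ENSMUSG00000038299, spanning bases 32970278 to 33000647 of chromosome 18 in GRCm39). It was read at 69.5, 80.1 and 71.6 CPM in the controls and 33.9, 47.4 and 38.5 CPM in the KANSL1-deficient libraries, without overlap (log2 fold change -0.88 ± 0.17, SE; edgeR adjusted p = 0.0111). It did not pass without KANSL1-deficient replicate 1 (edgeR adjusted p = 0.0635). Tbl3 (ENSMUSG00000040688, spanning bases 24916923 to 24926634 of chromosome 17 in GRCm39), the counterpart of yeast Utp13, was read at 42.0, 40.9 and 55.9 CPM in the controls and 24.6, 32.9 and 26.6 CPM in the KANSL1-deficient libraries. It also fell, with a log2 fold change of -0.72 ± 0.19 (adjusted p = 0.0443, edgeR), and did not pass when any 1 library was left out. Pwp2, a scaffold of the complex, was read at 26.9, 29.6 and 52.6 CPM in the controls and 18.3, 22.5 and 20.5 CPM in the KANSL1-deficient libraries. Its groups did not overlap, control replicate 3 stood well above the other controls, and the log2 fold change of -0.83 ± 0.25 (SE) did not pass (adjusted p = 0.0674, edgeR). Wdr3, Utp6 and Utp18 overlapped between the groups and had log2 fold changes of -0.34, -0.30 and -0.09. For Utp6, KANSL1-deficient replicate 1 was read at 22.2 CPM against 41.0 and 42.8 in replicates 2 and 3. Utp18, the least abundant UTP-B transcript in control cells by FPKM, had a value below 0 in all but 1 analysis: with the trend on abundance removed it was 0.02. The 6 subunits spanned 4.01 to 12.7 FPKM in control cells and 3.39 to 9.02 FPKM in KANSL1-deficient cells.

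In the MPP10 module, which steadies the pairing of U3 with the pre-ribosomal RNA, all 3 genes had negative values and none passed. Imp4 was read at 225, 222 and 275 CPM in the controls and 163, 192 and 174 CPM in the KANSL1-deficient libraries, and its groups did not overlap (log2 fold change -0.45 ± 0.13, SE; adjusted p = 0.0631, edgeR). Mphosph10, the scaffold, had -0.38 ± 0.15 and Imp3 -0.56 ± 0.30. Imp3 was the rarest of them, at 10.4 ± 3.31 and 7.09 ± 1.19 CPM (SD, n = 3 each), and its groups overlapped. Imp4 was called lower in 7 of the 16 alternative analyses, DESeq2 among them. Other members short of the threshold were also called in some of the 16, Noc4l in 6 and Ngdn in 4. Utp20, Pdcd11, Prkdc, Pwp2, Nol10, Fcf1 and Utp14a were called in 5 each.

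Of the enzyme-like members, Utp23 fell and Emg1 did not. Utp23 has a PIN nuclease fold and in yeast is needed for the release of a snoRNA from the particle (ENSMUSG00000022313, spanning bases 51740825 to 51748010 of chromosome 15 in GRCm39). It was read at 18.1, 23.2 and 25.1 CPM in the controls and 11.8, 13.1 and 8.96 CPM in the KANSL1-deficient libraries, a log2 fold change of -0.97 ± 0.24 (SE; edgeR adjusted p = 0.031). Fcf1, the related PIN nuclease that is the counterpart of yeast Utp24, was read at 37.0, 48.1 and 38.0 CPM in the controls and 23.9, 27.2 and 31.1 CPM in the KANSL1-deficient libraries. Its groups did not overlap, and its log2 fold change of -0.58 ± 0.19 (SE) did not pass (adjusted p = 0.0805, edgeR). Emg1, a methyltransferase of the small-subunit RNA, was the single coding member whose KANSL1-deficient libraries all lay above the controls, at 254, 307 and 306 CPM in the controls and 341, 354 and 331 CPM in the KANSL1-deficient libraries. As many as 14.6% of all tested genes did so. Its log2 fold change of 0.24 ± 0.12 (SE) did not pass (adjusted p = 0.257, edgeR) and was 0.03 at its smallest across the alternatives.

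Among the 14 other assembly factors, 3 fell, 12 had a negative log2 fold change, and 9 did not overlap between the groups with the KANSL1-deficient libraries lower. Over all tested genes these shares were 2.91%, 51.8% and 14.0%. Dcaf13, a WD-repeat protein that is the counterpart of yeast Sof1 and also a substrate receptor of a CUL4 ubiquitin ligase, varied little within groups (ENSMUSG00000022300, spanning bases 38976260 to 39010251 of chromosome 15 in GRCm39). It was read at 48.9, 50.4 and 49.6 CPM in the controls and 31.7, 32.6 and 30.4 CPM in the KANSL1-deficient libraries, a log2 fold change of -0.65 ± 0.15 (SE; edgeR adjusted p = 0.0275). Utp3, the counterpart of yeast Sas10, was the most abundant member by FPKM in control cells (ENSMUSG00000070697, spanning bases 88702321 to 88703949 of chromosome 5 in GRCm39). It was read at 147, 165 and 144 CPM in the controls and 104, 115 and 108 CPM in the KANSL1-deficient libraries and fell by 0.48 on the log2 scale (adjusted p = 0.0416, edgeR). Wdr46, the counterpart of yeast Utp7 (ENSMUSG00000024312, spanning bases 34159634 to 34168671 of chromosome 17 in GRCm39), was read at 19.3, 17.9 and 22.2 CPM in the controls and 9.99, 11.7 and 12.0 CPM in the KANSL1-deficient libraries and fell by 0.82 (adjusted p = 0.0439, edgeR). With 1 library left out, Wdr46 passed in none of the 6 analyses, and Dcaf13, Utp3 and Utp23 passed in 1 each.

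Of the 11 other factors, 7 had an unadjusted p under 0.05 and a negative log2 fold change, and none of them passed the adjusted threshold. With the 3 that fell these made 10 of 14, where the share over all tested genes was 11.0%. Utp20, a long HEAT-repeat protein, was read at 13.7, 14.3 and 14.1 CPM in the controls and 4.62, 7.73 and 8.71 CPM in the KANSL1-deficient libraries. Its controls were nearly equal and lay above all KANSL1-deficient libraries (log2 fold change -1.002 ± 0.28, SE; adjusted p = 0.0526, edgeR). Pdcd11, the counterpart of yeast Rrp5, which acts on both subunits, was read at 31.9, 36.6 and 28.4 CPM in the controls and 21.3, 21.7 and 13.4 CPM in the KANSL1-deficient libraries, with a log2 fold change of -0.78 ± 0.22 (adjusted p = 0.0574, edgeR). Noc4l and Nop14, which bind each other, had -0.61 and -0.41. Nol10, the counterpart of yeast Enp2, Utp14a, an activator of the helicase DHX37, and Ngdn, the counterpart of yeast Lcp5, had -0.64, -0.54 and -0.50. Krr1, with a KH domain, had -0.20. Utp25 had 0.35 and Utp11 0.13, and the groups of both overlapped. The sign of Utp11 turned with library totals (-0.02). Utp14b, a retrocopy of Utp14a, had -0.15. It overlaps Acsl3 on the same strand, so its reads are uncertain.

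The term also marks Xrcc5 and Prkdc, better known as Ku80 and the catalytic subunit of DNA-dependent protein kinase in DNA end joining. Xrcc5 (ENSMUSG00000026187, spanning bases 72346586 to 72434111 of chromosome 1 in GRCm39) was read at 42.0, 37.5 and 36.9 CPM in the controls and 17.3, 18.1 and 22.9 CPM in the KANSL1-deficient libraries, without overlap, and fell (-0.996 ± 0.19, SE; edgeR adjusted p = 0.0107). It did not pass without KANSL1-deficient replicate 1 (edgeR adjusted p = 0.0598) or 2 (0.0608). Prkdc was read at 62.2, 48.5 and 39.8 CPM in the controls and 32.6, 29.8 and 34.4 CPM in the KANSL1-deficient libraries, also without overlap, and did not pass (-0.64 ± 0.19, adjusted p = 0.0649, edgeR). Without them, 9 of 33 coding genes fell and the median was -0.50.

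**Figure D3:**
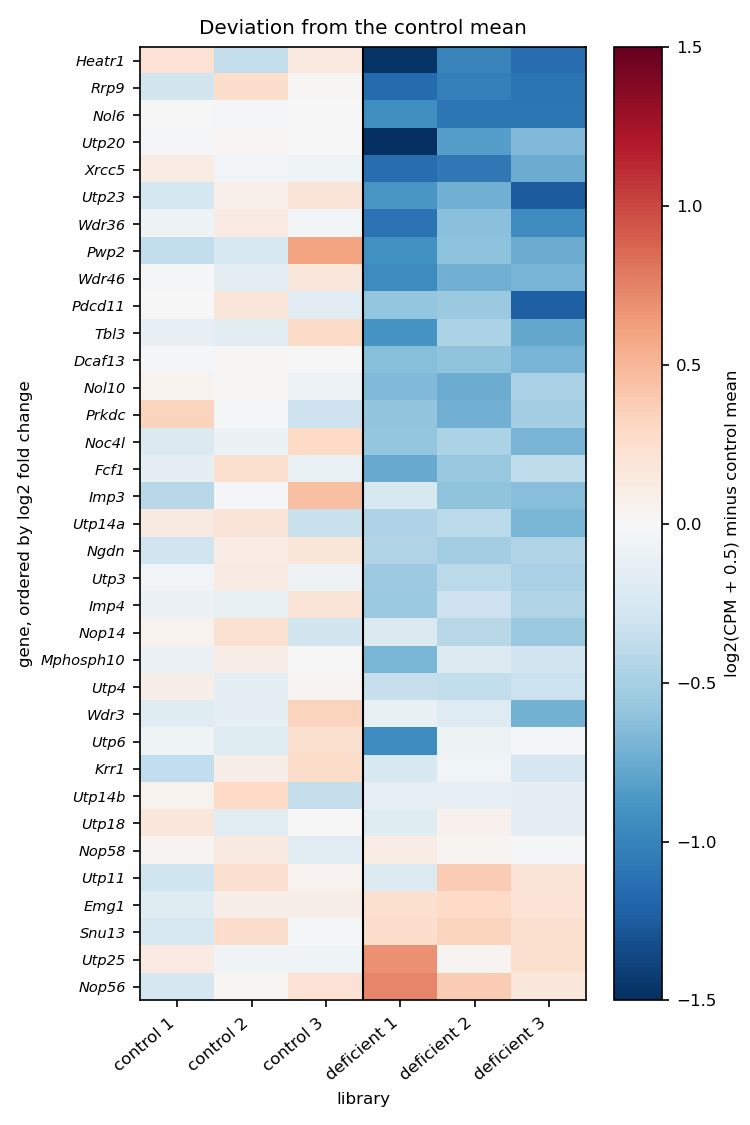
Each cell is log2(CPM + 0.5) of a gene in a library minus the mean of the 3 control libraries, for the 35 tested protein-coding genes ordered by log2 fold change. The 3 KANSL1-deficient columns are blue for nearly all genes except those at the bottom, and the median deviations are -0.58, -0.47 and -0.51.

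The shift was similar in the 3 KANSL1-deficient libraries. Relative to the control mean, the median of the 35 genes on the log2(CPM + 0.5) scale was -0.07, 0.03 and 0.01 in control replicates 1 to 3. In KANSL1-deficient replicates 1 to 3 it was -0.58, -0.47 and -0.51. In these libraries 30, 28 and 30 of the 35 genes lay below their control mean. Of all 15353 tested genes, 7695, 7614 and 7696 did so in the same libraries. In control replicates 1 to 3 it was 23, 15 and 15 of the 35. For UTP-B the medians were -0.90, -0.33 and -0.73, so replicate 2 was the mildest there. Control replicate 1 was the lowest control for 17 of the 35 genes. The summed level of the 36 coding genes was 2458, 2712 and 2677 CPM in the controls and 2251, 2297 and 2143 CPM in the KANSL1-deficient libraries. Emg1, Imp4, Nop56 and Snu13 had the highest control CPM and so weigh most in this sum.

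On the deposited lengths, Utp3 in control cells had the highest mean, 98.0 ± 6.01 FPKM (SD, n = 3), followed by Emg1 at 65.5 ± 6.18, Snu13 at 61.1 ± 9.98 and Nop56 at 43.9 ± 6.84 FPKM. Utp20 was the lowest at 1.45 FPKM, and Pdcd11, Prkdc and Utp18 followed at 3.48, 4.01 and 4.01 FPKM. In KANSL1-deficient cells Emg1 led at 70.0 ± 1.88 FPKM and Snu13 was next at 66.3 ± 2.06, while Utp3 stood at 63.4 ± 3.74 FPKM. FPKM values are relative to library totals, on which the change of all genes is lower by 0.15 on the log2 scale than with TMM.

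**Figure D4:**
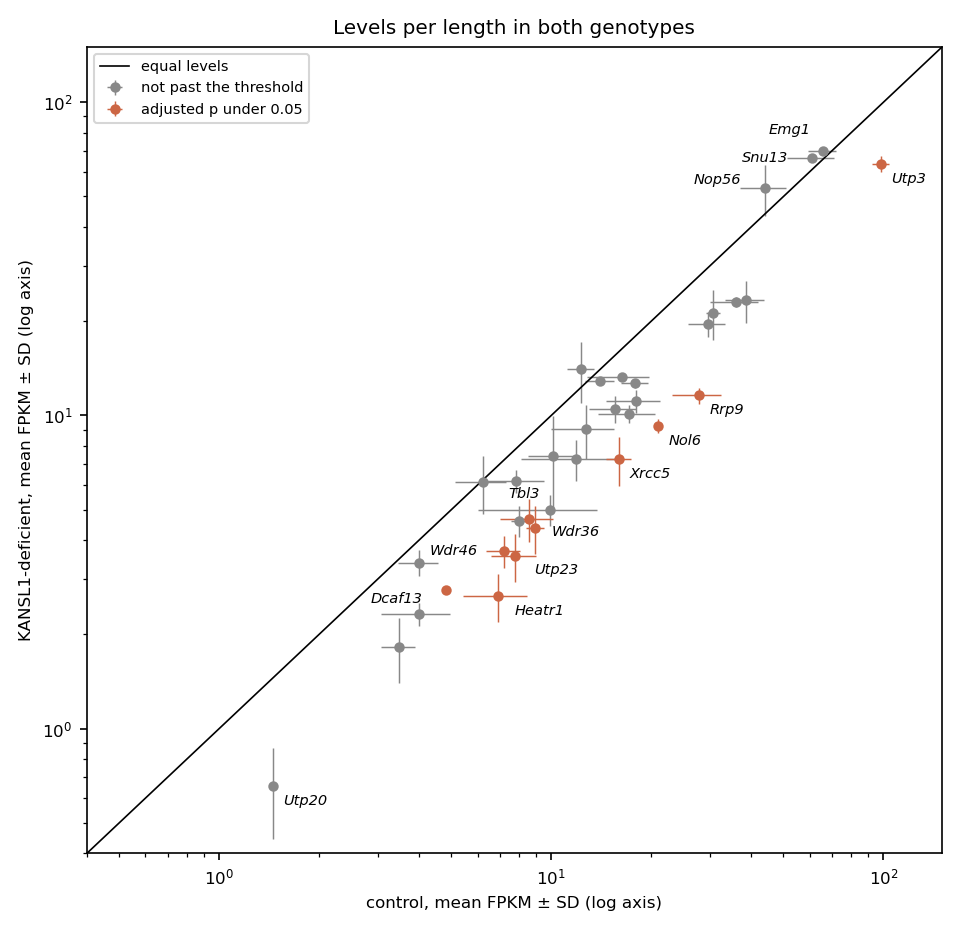
Mean FPKM ± SD (n = 3) of the 35 tested protein-coding genes in control (horizontal, log axis) and KANSL1-deficient cells (vertical, log axis), with the 10 genes past the edgeR threshold in orange. The orange genes lie below the line of equal levels at every abundance, from Dcaf13 to Utp3, and Emg1, Snu13 and Nop56 lie on or above it.

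Promoters are shown for genes that fell. RefSeq promoter entries (build GRCm38.p6, which is not the GRCm39 build of the count table) matched 27 of the 36 coding members, and 5 of the 10 genes that fell: Rrp9, Heatr1, Xrcc5, Utp3 and Wdr46. No entry was matched for Nol6, Dcaf13, Utp23, Wdr36, Tbl3, Fcf1, Prkdc, Utp11 or Utp6. The 200 bases before the RefSeq start follow, 5′ to 3′ on the gene's strand, and Nop56 is added as a U3 snoRNP gene that did not fall. Capitals mark matches to 8 motifs on either strand: the E-box CACGTG, the ETS core CCGGAAG, the NRF1 motif, the YY1 motif AAGATGGC, the CCAAT box CCAAT, the GC box GGGCGG, the ZNF143 and THAP11 motif and the TATA box TATAAA. All 6 genes lie on the plus strand. The windows are chr9:106477109-106477308, chr13:12395175-12395374, chr1:72307221-72307420, chr5:88554262-88554461, chr17:33940523-33940722 and chr2:130274212-130274411.
Rrp9: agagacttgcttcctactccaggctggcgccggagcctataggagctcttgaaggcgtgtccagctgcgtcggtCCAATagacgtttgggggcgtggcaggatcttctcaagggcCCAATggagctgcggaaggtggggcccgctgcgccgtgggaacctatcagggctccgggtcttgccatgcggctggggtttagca
Heatr1: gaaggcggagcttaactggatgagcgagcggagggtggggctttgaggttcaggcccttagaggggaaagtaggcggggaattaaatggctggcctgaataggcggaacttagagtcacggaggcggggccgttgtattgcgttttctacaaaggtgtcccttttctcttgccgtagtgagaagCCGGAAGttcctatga
Xrcc5: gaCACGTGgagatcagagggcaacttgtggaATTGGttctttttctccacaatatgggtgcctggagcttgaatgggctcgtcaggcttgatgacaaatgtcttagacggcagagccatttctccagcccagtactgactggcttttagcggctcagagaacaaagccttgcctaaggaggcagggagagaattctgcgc
Utp3: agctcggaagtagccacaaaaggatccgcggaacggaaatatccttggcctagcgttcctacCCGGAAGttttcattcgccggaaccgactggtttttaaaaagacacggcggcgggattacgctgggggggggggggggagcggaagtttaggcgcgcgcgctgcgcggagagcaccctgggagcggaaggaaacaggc
Wdr46: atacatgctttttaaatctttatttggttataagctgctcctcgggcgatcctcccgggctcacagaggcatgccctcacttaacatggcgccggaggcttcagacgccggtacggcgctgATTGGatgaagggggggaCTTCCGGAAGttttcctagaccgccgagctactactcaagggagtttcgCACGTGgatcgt
Nop56: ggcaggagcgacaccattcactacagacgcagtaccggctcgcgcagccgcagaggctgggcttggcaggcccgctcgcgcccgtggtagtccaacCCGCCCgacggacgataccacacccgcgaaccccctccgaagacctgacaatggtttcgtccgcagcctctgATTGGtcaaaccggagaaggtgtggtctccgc

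The ETS core stood in the windows of Heatr1, Utp3 and Wdr46, where 2 overlapping matches on opposite strands form a palindrome in Wdr46. The E-box stood in Xrcc5 and Wdr46, and a CCAAT box in Rrp9 (2 matches), Xrcc5, Wdr46 and Nop56. The GC box stood in Nop56 and in 0 of the 5 windows of genes that fell. Over the 26 tested coding members with an entry, which have 28 windows, the ETS core was found in 11 of 28 windows (39.3%), against 12.8% of the windows of all tested genes and 6.29% of all 32851 windows. The E-box was in 5 of 28 windows (17.9%), against 7.27% of the windows of all tested genes and 5.26% of all 32851 windows. The CCAAT box was in 12 of 28 windows (42.9%), against 31.8% of the windows of all tested genes and 29.3% of all 32851 windows, and the GC box in 16 of 28 windows (57.1%), against 53.3% of the windows of all tested genes and 31.0% of all 32851 windows. The TATA box was in 1 of the 28 windows. The NRF1 motif was in none of them, and in 1.54% of the windows of tested genes. The YY1 motif and the ZNF143 and THAP11 motif were in 1 window each. These counts describe letters in a fixed window, with no test, and the number of member windows is small.

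The role lists also hold genes without the term, among them 13 of the nuclear exosome and its cofactors and some of large-subunit assembly. Of 56 such genes 9 fell and none rose (16.1%, beside 2.91% of all tested genes called lower), with a median log2 fold change of -0.33. Besides Rrp7a, Rrp36 and Utp15, they were Bud23 (a small-subunit RNA methyltransferase, -1.20), Dhx33 (a helicase, -1.56), Exosc9 (a subunit of the RNA exosome, -1.08), Esf1 (-0.68), Urb1 (-1.81) and Rrp1b (-1.11). Without Urb1, Rrp1b and Rrp1, which act in large-subunit assembly, the count was 7 of 53. Others of these 53, such as Nop2, Cebpz and Nol12, may act there too. The count of 9 became 10, 4 and 8 without control replicates 1, 2 and 3, beside 2.38%, 0.894% and 1.55% of all tested genes. Without KANSL1-deficient replicates 1, 2 and 3 it became 4, 5 and 4, beside 0.530%, 0.838% and 1.11%. Genes that act in the early particle beside the members but did not pass included the GTPase gene Bms1 (read at 102, 103 and 135 CPM in the controls and 105, 94.1 and 80.7 CPM in the KANSL1-deficient libraries) and the acetyltransferase gene Nat10 (log2 fold change -0.51). Rcl1, the partner of Bms1, had 0.03.

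Lists for neighbouring steps are read beside the 2.91% of all tested genes called lower. They share genes such as Bud23, Pno1 and Tsr1 with the 56 genes above, so they are not separate from these. In the list of small-subunit maturation and export, 1 of 17 genes (5.88%) fell, Bud23, and the median log2 fold change was -0.34. With an unadjusted p under 0.05 (edgeR), 6 of the 17 were lower and 1 higher, beside 11.0% and 11.7% of all tested genes. In the list of box C/D snoRNP assembly, 1 of 13 (7.69%) fell and the median was -0.18. With an unadjusted p under 0.05 (edgeR), 5 of the 13 were lower and 0 higher. The gene that fell was Nufip1, an assembly factor of these particles, read at 107, 130.2 and 116 CPM in the controls and 79.0, 74.1 and 60.9 CPM in the KANSL1-deficient libraries (log2 fold change -0.72 ± 0.15, SE; adjusted p = 0.0159, edgeR). It did not pass without control replicate 2 or without KANSL1-deficient replicate 2 or 3. In the list of pre-ribosomal RNA modification and box H/ACA particles, edgeR called 0 of 16. At an unadjusted p under 0.05, 2 were lower, beside 11.0% of all tested genes. DESeq2 called 2 lower, beside 6.99% of the genes with an adjusted p. The median was -0.19. None of the 3 lists had a gene called higher.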

How the data were processed

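The deposited counts are whole numbers per gene. STAR, featureCounts and DESeq2 are named, with the build GRCm39, per the submitters' processing notes, and no source used here names their versions, the annotation or the strand setting. The authors also deposited FPKM values. Their comparison table, per the file headers, holds a mean normalized signal, the change as a ratio and as log2, and p-values before and after adjustment. Polyadenylated RNA was sequenced, per the labels' protocols.

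Counts were tested with edgeR 4.0.16 in R 4.3.3: TMM scaling, default filter by group (minimum count 10, minimum total 15), robust quasi-likelihood fit on all genes, Benjamini-Hochberg adjustment at 0.05. The standard error is the log2 fold change divided by the square root of F. The 35 coding members and 8 of the 29 pseudogene and non-coding rows passed the filter. No 2 libraries were duplicates by a chi-square comparison of counts, and the test was checked on simulated counts. The labels number the libraries as mice of each genotype, and each library is taken as 1 mouse. The labels do not say whether cells of several mice were pooled. Alternatives used limma 3.58.1 and DESeq2 1.42.0. Named genes were Kansl1, called members, U3 core genes, members with an unadjusted p under 0.05, per role the smallest p and highest FPKM, and up to 3 called genes per list. Role genes without the term that did not pass, and the FPKM ratios, were picked after their values were seen, and other members are given by value. Members and lists were chosen with earlier results of these data known. Role genes were placed by textbook knowledge of the yeast and human particle.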

Additional observations from a re-analysis of the deposited data

How the results depend on the processing

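With alternatives, the number of processome members called lower was 10 in the analysis reported, 20 with library totals, 17 with no filter, 19 with a minimum of 5 CPM in 3 libraries, 19 with DESeq2, and 3 to 10 with any 1 library left out. No alternative called a member higher. The median log2 fold change of the coding members was -0.69 with library totals, -0.61 with limma on log2(FPKM + 1), -0.66 on log2(FPKM + 0.1), and -0.52 to -0.47 with 1 library left out. Over all genes, 447 were lower and 591 higher in the analysis reported. With library totals these were 957 and 367, with DESeq2 946 and 1072, with no filter 845 lower, with 5 CPM 740 lower, with log2(FPKM + 1) 300 higher and with log2(FPKM + 0.1) 277 higher. With 1 library left out they were 86 to 381 lower and 169 to 447 higher. For the 56 genes without the term, the 9 lower became 23, 15, 17, 18, 15 and 15 with library totals, no filter, 5 CPM, DESeq2, and the 2 FPKM analyses, and 4 to 10 with 1 library left out. The maturation and export list had 6, 3, 3, 4, 3 and 3 lower genes in these 6 analyses (1 to 2 left out), the box C/D list 3, 3, 2, 3, 2 and 2 (0 to 3), and the modification list 2, 1, 2, 2, 1 and 1. With limma-voom and with the abundance trend removed, the box C/D list had 2 and 2, and the modification list 1 and 1. The cause of these shifts was not tested.

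With replicate number as a replicate block, 5 of the 35 coding members were called lower. Of all 15353 tested genes, 164 were lower and 242 higher. Of the 56 genes without the term 5 were lower, and of the 13 in the box C/D list 0. Deviations of same-numbered libraries from their group means correlated at -0.05, -0.02 and -0.10, and control replicate 1 correlated best with KANSL1-deficient replicate 3 (0.07). With 3 libraries per group these values cannot decide whether equal numbers mark paired mice, and the labels do not say. The sign turned for members near 0: Utp11 (0.13) was -0.016 with library totals, -0.019 with log2(FPKM + 1), -0.023 with log2(FPKM + 0.1), and -0.021 (without control replicate 1) to 0.28 with 1 library left out. Utp18 (-0.09) was 0.021 with the abundance trend removed. Nop58 (0.03) was -0.12 with library totals, -0.10 and -0.11 with log2(FPKM + 1) and log2(FPKM + 0.1), -0.10 with the trend removed, and -0.055 (without control replicate 3) to 0.082 with 1 library left out. Of 560 values of single members under the alternatives, 460 kept direction and side of the threshold, 37 lost a call, 52 gained one and 11 turned sign.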

Other observations

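The 29 pseudogene and non-coding rows with the term were mostly near the detection limit. Of these, 8 passed the filter, edgeR called 0 of them, 0 had an unadjusted p under 0.05, and DESeq2 called 0. Gm27219, annotated as like Nop56, was read at 1.93, 2.64 and 2.16 CPM in the controls and 4.53, 3.02 and 3.55 CPM in the KANSL1-deficient libraries, so the KANSL1-deficient libraries all lay above the controls, as in 14.6% of all tested genes (log2 fold change 0.72 ± 0.40, SE; adjusted p = 0.321, edgeR). Wdr46-ps was read at 6.92, 4.09 and 2.68 CPM in the controls and 4.33, 1.74 and 4.46 CPM in the KANSL1-deficient libraries, with overlap. Reads of such copies and of their parent genes may be shared in the counting, and the size of this was not tested.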
